A study of Mus musculus with 32 samples.

Results

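The genes described here are 34 interferon-responsive and antigen presentation genes of the mouse, measured by bulk RNA sequencing in satellite cells (SCs), the muscle stem cells, and in fibro-adipogenic progenitors (FAPs), the mesenchymal cells of the muscle interstitium. They were chosen by symbol, and all 34 were found among the 55487 genes of the deposited tables. They fall into 18 type I-like members (genes known mainly as targets of type I interferon), 10 gamma-like members (genes known mainly as targets of interferon gamma) and 6 members of class I antigen presentation. Cells were sorted from the supraspinatus, a rotator cuff muscle, of wild-type C57BL/6J mice labelled male and 12 weeks old. Every muscle had received cardiotoxin, a myotoxin that makes fibres degenerate and regenerate. The BAT muscles then also received a transplant of interscapular brown adipose tissue from mice 3 weeks old, and the control muscles had the injury alone. Each of the 8 groups (SC or FAP, control or BAT, D3 or D7) held 4 libraries, 32 in all, from 8 mice. According to the study's design text, paired samples came from 1 mouse. The D3 mice carry the codes 2b, 3a and 3b plus 1 without a code, taken here to be the same animal in all 4 of its libraries, and the D7 mice are 1a, 1b, 3 and 5. No uninjured muscle and no sham transplant is among the groups.

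Type I interferons signal through the receptor chains Ifnar1 and Ifnar2 to a complex that includes Stat2 and Irf9 and binds interferon-stimulated response elements (ISRE) in target promoters. Interferon gamma signals through Ifngr1 and Ifngr2, acts on promoters with gamma-activated sites (GAS), and induces Irf1, itself a factor that binds ISRE-like letters. The targets include antiviral effectors, guanylate-binding GTPases and the proteasome subunits, peptide transporter and heavy chains of the class I pathway, so the classes overlap and many members respond to both interferons.

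The promoter letters below are shown because ISRE and GAS are the elements through which both interferon types are known to act. RefSeq promoter windows (build GRCm38.p6, 250 bases before to 50 after the start) were found for 29 of the 34 members. An ISRE-like match (GAAA, any 2 bases, GAAA, or on the other strand TTTC, any 2 bases, TTTC) was searched, as was the GAS-like TTCNNNGAA, which reads the same on both. An ISRE-like match was present for 8 of 15 type I-like, 6 of 8 gamma-like and 1 of 6 class I members, against 3.99% of all 27025 genes with a window. A GAS-like match was present for 5 of 15, 5 of 8 and 1 of 6 members, against 9.55% of all genes. Both kinds of match occurred in both interferon classes, and a match is not a measured binding site. The stretches below lie at chr19:34583340-34583449 (plus strand), chr4:156200831-156200940 (minus), chr11:58199446-58199555 (plus), chr3:142530206-142530315 (plus), chr11:53769873-53769982 (plus) and chr2:122147498-122147607 (plus), each a stretch of 110 bases upstream of the start, written 5′ to 3′ with matches in capitals.
Ifit3: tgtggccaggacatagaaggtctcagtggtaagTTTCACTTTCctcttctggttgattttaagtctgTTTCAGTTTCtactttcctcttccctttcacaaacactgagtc
Isg15: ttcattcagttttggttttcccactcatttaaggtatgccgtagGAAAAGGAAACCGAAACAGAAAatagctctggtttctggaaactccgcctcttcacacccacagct
Igtp: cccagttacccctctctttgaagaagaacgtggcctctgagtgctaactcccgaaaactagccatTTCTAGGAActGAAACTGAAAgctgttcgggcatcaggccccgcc
Gbp7: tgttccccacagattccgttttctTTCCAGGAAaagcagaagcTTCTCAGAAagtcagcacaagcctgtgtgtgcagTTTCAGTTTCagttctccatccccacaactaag
Irf1: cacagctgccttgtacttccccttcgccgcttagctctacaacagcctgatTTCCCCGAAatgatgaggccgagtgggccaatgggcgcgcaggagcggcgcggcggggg
B2m: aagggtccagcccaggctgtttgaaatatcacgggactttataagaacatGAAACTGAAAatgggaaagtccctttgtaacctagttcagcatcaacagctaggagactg
Ifit3 held 2 separate ISRE-like matches and no GAS-like one. In Isg15, 3 ISRE-like matches overlapped in 1 run. Igtp and Gbp7, both gamma-like GTPases, held ISRE-like beside GAS-like matches, Irf1 held a GAS-like match alone, and B2m held 1 ISRE-like match.

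Library totals ran from 19.8 M to 46.4 M counts (median 25.7 M, M standing for mega), so that 3 counts, the limit a count of 0 allows, correspond to between 0.065 and 0.15 CPM, the count scaled to the library total. These limits cover counting error only. Several libraries stood apart from their labels or groups. Although CD45- cells were sorted, the summed level of 26 macrophage markers reached 2141 CPM in the control SC library of the uncoded D3 mouse, 2422 CPM in the BAT SC library of mouse 2b and 5990 CPM in the BAT FAP library of mouse 2b, against 17.4 to 227 CPM in the other D3 libraries and 7.87 to 120.5 CPM at D7. All 4 libraries of D7 mouse 5 carried Xist at 163 to 355 CPM and Ddx3y at 0, against the label male. Ly6a, which encodes Sca1, lay between 2.38 and 42.8 CPM in SCs and between 426 and 1162 CPM in FAPs, although the study's text calls both gates Sca1+. The counts of called members are given with and without these libraries where they changed. In bulk samples, fewer cells of a type and less RNA per cell cannot be told apart.

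**Figure D1:**
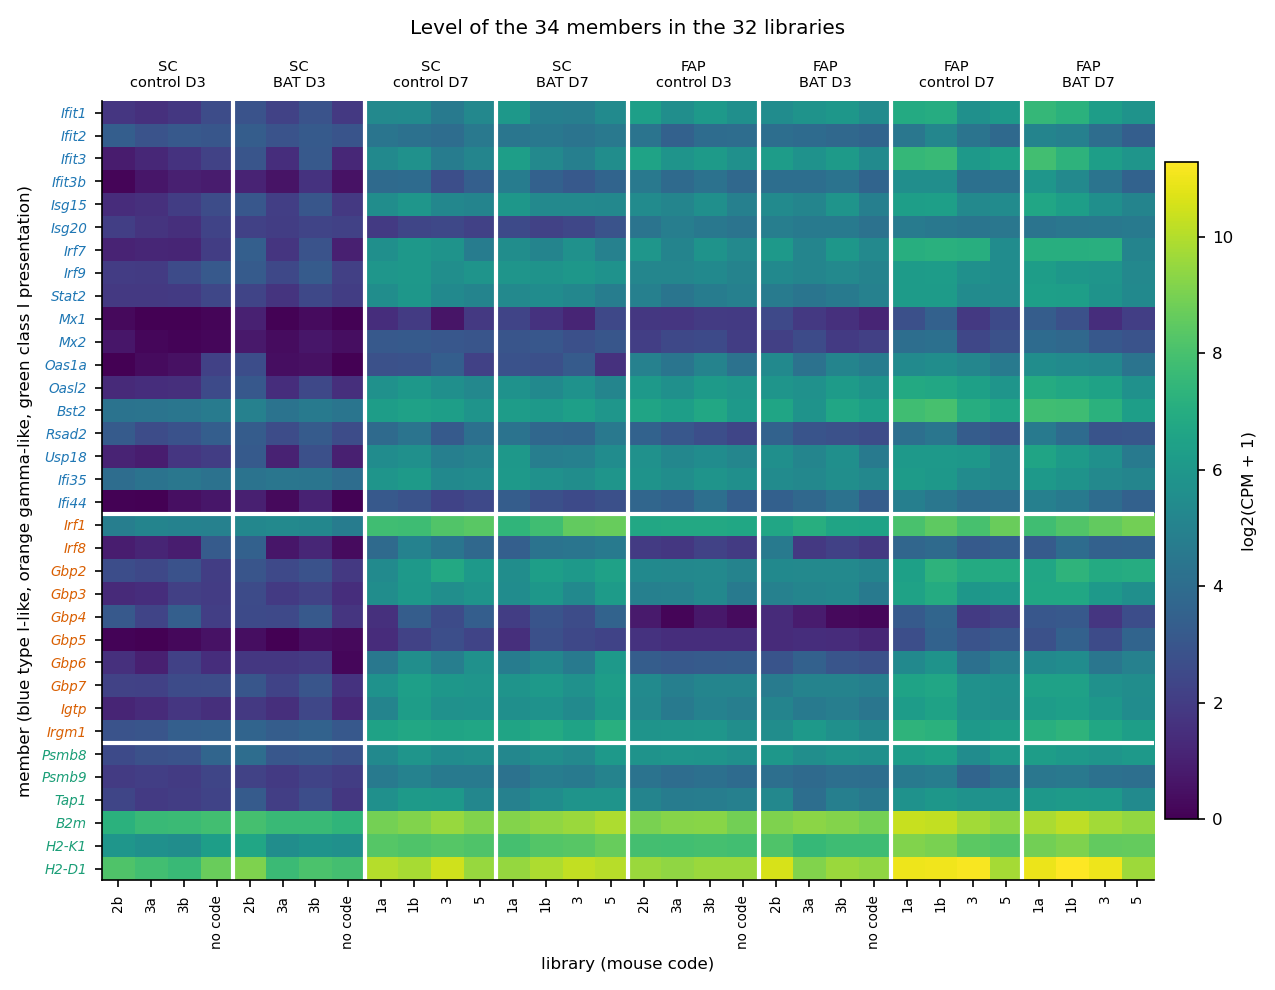
Level of each of the 34 members (rows) in each of the 32 libraries (columns, mouse code below), as log2(CPM + 1) on the colour scale. The 8 D3 libraries of satellite cells are the darkest block for most members. Gbp4 runs the other way, at 0.112 to 0.781 CPM in control FAPs at D3 against 3.24 to 9.8 CPM in control satellite cells, and Rsad2 lies at like levels in both.

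Transcripts of the interferons themselves were nearly absent. The summed level of 10 ligand genes (Ifnb1, Ifng, 4 of the Ifna family, Ifne, Ifnk, Ifnl2 and Ifnl3) was at most 1.39 CPM in any library, and none passed the filter on low counts. That highest value came from the control SC library of the uncoded D3 mouse, 1 of the 3 libraries rich in macrophage markers, and the sums elsewhere were 0 to 0.831 CPM. The receptor chains were measured throughout. In control SCs, Ifngr1 had 45.8 ± 4.38 CPM (mean ± SD, n = 4 here and below) at D3 and 140 ± 21.4 CPM at D7, and Ifnar2 had 18.2 ± 3.12 and 41.4 ± 5.15 CPM. Between the days, edgeR's quasi-likelihood test called all 4 chains higher at D7 in control SCs, with log2 changes ± SE of 1.25 ± 0.13 for Ifngr1, 0.84 ± 0.16 for Ifnar2, 0.80 ± 0.20 for Ifngr2 and 0.49 ± 0.13 for Ifnar1, where 29.7% of all genes tested were called higher. In control FAPs none of the 4 passed the test, with log2 changes between -0.01 and 0.55.

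In control satellite cells most of the members rose between D3 and D7. The test called 30 of the 34 higher at D7 and none lower, where 29.7% of all 16597 genes tested were called higher and 29.8% lower (59.4% in either direction). By class these were 15 of 18 type I-like, 9 of 10 gamma-like and 6 of 6 class I members, with median log2 changes of 3.50, 3.53 and 2.19 against 0.03 over all genes. In 31 of the 34 members, every D7 library lay above every D3 library, which was so for 38.1% of all genes with a mean of at least 1 CPM. D3 and D7 libraries came from different mice and stand in 2 separate tables, so the day cannot be told apart from the mice or from any difference in handling between the tables.

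Among the factors that transmit the signal, Irf7, which amplifies type I responses, had 1.19, 1.29, 1.25 and 3.13 CPM in the control SC libraries of mice 2b, 3a, 3b and the uncoded one at D3. At D7 it had 48.7, 64.7, 54.4 and 25.4 CPM in mice 1a, 1b, 3 and 5, so the groups lay far apart and mouse 5 was the lowest of its day. Its log2 change was 4.48 ± 0.39 (edgeR, Benjamini-Hochberg adjusted p = 1.51e-05). Stat2 and Irf9, components of the ISRE-binding complex, went from 3.11 ± 0.832 to 45.4 ± 12.1 CPM and from 4.66 ± 2.27 to 56.5 ± 7.29 CPM, with log2 changes of 3.51 ± 0.23 and 3.23 ± 0.29. Irf1 was the most abundant gamma-like member, at 27.5, 33.3, 30.8 and 30.1 CPM at D3 (mice 2b, 3a, 3b, uncoded) and 224, 219, 302 and 338 CPM at D7 (mice 1a, 1b, 3, 5). The Irf1 groups did not overlap and the log2 change was 2.80 ± 0.19. Irf8, a factor also abundant in myeloid cells, had 8.44 CPM in the macrophage-rich D3 library against 0.863 to 1.25 CPM in the other 3, and 13.1 to 30.7 CPM at D7.

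The antiviral effectors showed the same ordering of days. Bst2, a membrane tether of budding virions, had 18.5, 19.5, 20.3 and 25.3 CPM at D3 and 77.1, 88.2, 79.5 and 57.1 CPM at D7, each in the order of mice given above. Every D7 value of Bst2 exceeded every D3 value, with a log2 change of 1.50 ± 0.16. Ifit3, of the RNA-binding IFIT family, had 0.815, 1.41, 2.11 and 3.68 CPM at D3 and 40.6, 51.8, 25.5 and 34.4 CPM at D7. The log2 change of Ifit3 was 3.86 ± 0.40, and the highest D3 value again belonged to the macrophage-rich library. Mx2 and Mx1, on chromosome 16, are genes of a dynamin-like GTPase family, and only their transcripts were measured here, not a working protein. They had the largest and the third largest fitted changes among type I-like members called, 4.68 ± 0.47 and 4.16 ± 0.78. These changes rest on few reads at D3, where Mx2 had 0.0862 to 0.594 CPM and Mx1 had 0 to 0.229 CPM. The other 3 type I-like members did not pass the test. Isg20, an exonuclease, had 2.82 ± 0.913 and 3.73 ± 0.753 CPM (log2 change 0.08 ± 0.28), Rsad2, the antiviral enzyme viperin, had 7.36 ± 2.01 and 14.6 ± 4.71 CPM (0.63 ± 0.25), and Oas1a, an RNA sensor, had 1.07 ± 1.69 and 6.29 ± 2.37 CPM (2.25 ± 0.94).

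The interferon-inducible GTPases, which act against intracellular pathogens, included the largest gamma-like changes. Igtp, an immunity-related GTPase at chr11:58199556-58207591 (mm10 with GENCODE M21 here and below), had 1.28, 1.65, 2.43 and 1.86 CPM at D3 and 32.8, 77.7, 51.3 and 53 CPM at D7. Its groups were far apart, and the log2 change was 4.49 ± 0.32. Irgm1, a regulator of the same family, had 6.49, 6.93, 9.79 and 10.5 CPM at D3 and 88.9, 109, 94.8 and 100 CPM at D7. The Irgm1 groups did not overlap, and its log2 change was 3.18 ± 0.19. Among the guanylate-binding proteins, Gbp3 and Gbp5 on chromosome 3 had log2 changes of 4.04 ± 0.28 and 3.93 ± 0.71, the latter from 0 to 0.475 CPM at D3. Gbp4, on chromosome 5, did not pass the test, at 6.22 ± 3.15 CPM at D3 and 6.26 ± 3.49 CPM at D7. Reads of near-identical relatives (Ifit3 and Ifit3b, the Gbp and class I families) may have been divided between copies by the authors' counting, so single-copy values in these families are uncertain.

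The class I pathway loads peptides on surface molecules that T cells inspect. H2-D1, a heavy chain at chr17:35262730-35267499, had 289.9, 235.4, 198.2 and 412.8 CPM at D3 and 1044, 887, 1426 and 756.5 CPM at D7 in control SCs. The lowest D7 value of H2-D1 still exceeded the highest D3 value, and the log2 change was 1.53 ± 0.26. B2m, the light chain of every class I molecule, had 145.7, 200.3, 205.2 and 236.1 CPM at D3 and 489.5, 559.5, 735.6 and 567.4 CPM at D7. Its log2 change was 1.23 ± 0.20, the smallest of the class. Tap1, a subunit of the peptide transporter, had the largest of the class at 3.65 ± 0.24, from 2.79 to 4.11 CPM at D3 to 36.1 to 69.4 CPM at D7.

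With library totals in place of the trimmed mean of M-values (TMM), the median of all genes shifted by 0.36 log2 and 32 members were called higher. Without the macrophage-rich control library 32 members were called higher, and with BAT libraries in place of control ones 31 were. All 30 members called kept their call in each of the 16 alternatives run. The type I-like median was 2.86 with BAT libraries and 3.86 with library totals. It was 3.95 without the control SC libraries above 3 times the median macrophage sum, those of the uncoded D3 mouse and of D7 mouse 5. The summed level of FAP markers in control SC libraries also differed between days, at 62.3 to 603.6 CPM at D3 and 649 to 6749 CPM at D7. Control FAPs at D7 had 29964 to 64855 CPM. Col1a1 made up most of the D7 sum in SCs, at 26.5 to 388 CPM at D3 and 540 to 6431 CPM at D7. The ranges of Pdgfra (0.228 to 13.9 and 1.02 to 7.01 CPM) and Ly6a (2.38 to 32.5 and 4.3 to 9.3 CPM) overlapped between the days. The 6749 CPM were in mouse 3, whose summed control SC levels were 479 CPM for type I-like members (460 to 693 CPM in the other 3 mice), 725 CPM for gamma-like (523 to 752 CPM) and 2613 CPM for class I members (1718 to 1959 CPM). Summed levels of 11 endothelial markers also differed, at 8.41 to 22 CPM in control SCs at D3 and 40 to 129 CPM at D7. Esam was the largest part of the D7 sum, at 0.503 to 3.88 CPM at D3 and 18.6 to 92.7 CPM at D7. The list did not move as 1. Pecam1 overlapped between the days (0.183 to 2.61 and 0.0851 to 3.65 CPM), as did Egfl7 (3.18 to 5.98 and 1.74 to 4.93 CPM). Cldn5 was lower at D7 (0.833 to 1.36 and 0.193 to 0.443 CPM). The part of either list in the rise was not tested.

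In control FAPs the gamma-like members rose as a class, and the type I-like members did so in part. Of the 34, 23 were called higher at D7 and none lower, where 11.5% of 16144 genes were called higher and 11.4% lower. By class these were 9 of 18 type I-like, 10 of 10 gamma-like and 4 of 6 class I members, with median log2 changes of 0.80, 1.69 and 0.91 against 0.09 over all genes. Every D7 library lay above every D3 library for 10 of 10 gamma-like and 2 of 18 type I-like members (Irf9 and Stat2), against 9.47% of genes with a mean of at least 1 CPM.

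Irf1 in control FAPs had 109, 111, 112 and 106 CPM at D3 (mice 2b, 3a, 3b, uncoded) and 260, 355, 254 and 420 CPM at D7 (mice 1a, 1b, 3, 5). The D3 values of Irf1 lay close together and all below D7, a log2 change of 1.62 ± 0.19. Irgm1 had 55.5, 58.4, 59.5 and 47.4 CPM at D3 and 163, 145, 66.4 and 79.2 CPM at D7, with mice 1a and 1b high and mice 3 and 5 nearer to the D3 values. The log2 change of Irgm1 was 1.07 ± 0.24 (adjusted p = 0.0118, edgeR). The largest gamma-like change was that of Gbp4, which was near its floor at D3, at 0.112 to 0.781 CPM, and had 2.79 to 11.9 CPM at D7 (log2 change 3.90 ± 0.60). Gbp5 and Gbp6 followed at 2.09 ± 0.27 and 2.07 ± 0.27.

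Among type I-like members in control FAPs, Bst2 had 95.4, 80, 107 and 67.6 CPM at D3 and 226, 253, 130 and 99.1 CPM at D7. The D7 range of Bst2 overlapped the D3 range, because mouse 5 lay below mouse 3b, and the log2 change was 1.06 ± 0.27 (adjusted p = 0.0197, edgeR). Ifit3 had 91.7, 56.1, 69.8 and 50.5 CPM at D3 and 181, 198, 66.8 and 85 CPM at D7. Here mice 1a and 1b stood above every D3 library and mice 3 and 5 stood within the D3 range, with a log2 change of 1.02 ± 0.31 (adjusted p = 0.0375, edgeR). Mx2, Irf7 and Stat2 had the largest type I-like changes, 1.46 ± 0.40, 1.36 ± 0.34 and 1.19 ± 0.19. Isg15, a ubiquitin-like modifier, had 38.6 ± 8.7 and 60.5 ± 23 CPM and did not pass the test (0.68 ± 0.25, adjusted p = 0.0694, edgeR). In the class I group H2-D1 had 780.2, 690, 771.9 and 759.8 CPM at D3 and 2056, 2117, 2326 and 874.5 CPM at D7. Mouse 5 stood far below the other D7 mice for H2-D1 and still above D3, and the log2 change was 1.38 ± 0.28. B2m had 523.2, 604.4, 625.8 and 477.2 CPM at D3 and 1296, 1204, 855.1 and 658 CPM at D7 (0.89 ± 0.22), again with mouse 5 lowest. Tap1 and H2-K1 changed by 1.03 ± 0.13 and 0.92 ± 0.19.

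The FAP calls were less stable than those in SCs. Without the D3 control FAP library of the uncoded mouse, 15 members were called higher, and without D7 mouse 5, 29 were. With BAT libraries in place of control, 17 were called. Mouse 5 weighed less elsewhere: without it 30 members were called higher at D7 in control SCs and 26 lower in control SCs than FAPs at D7. Across 15 alternatives, 9 of the 10 gamma-like members called kept their call in every one, as did 2 of the 9 type I-like (Irf9 and Stat2) and 2 of the 4 class I members (Tap1 and H2-K1). The endothelial marker sums of control FAPs were 13.5 to 21.4 CPM at D3 and 26.1 to 69.9 CPM at D7, and their part in the rise was not tested.

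**Figure D2:**
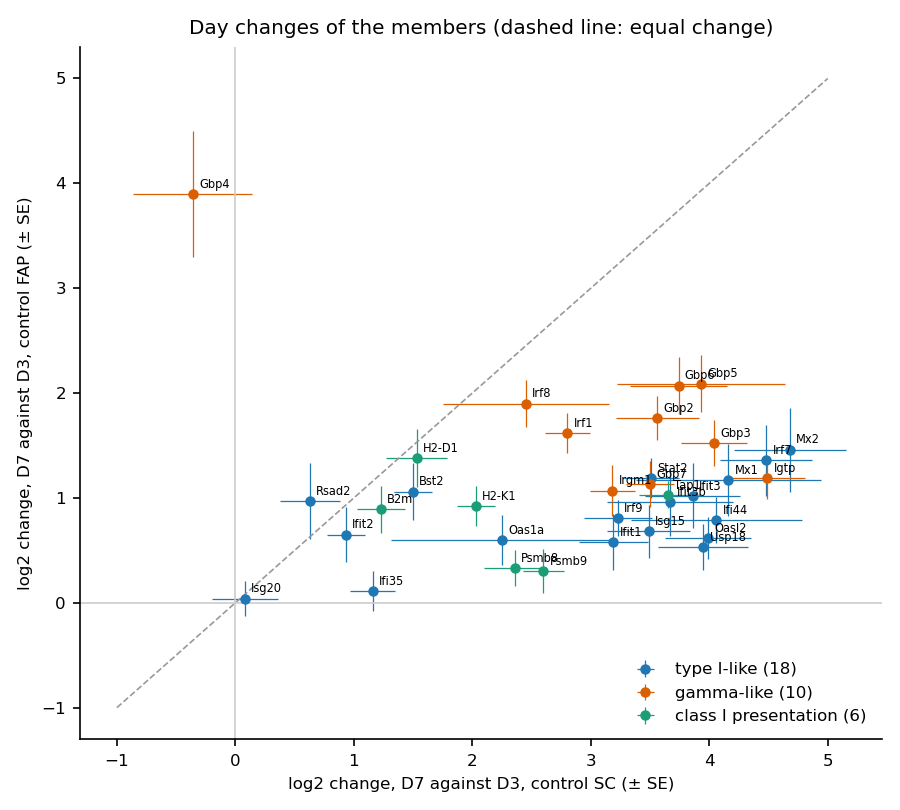
Log2 change between D7 and D3 in control FAPs (vertical axis) against the same in control satellite cells (horizontal axis) for the 34 members, with bars of ± 1 SE and a dashed line of equal change. Most members lie on the satellite cell side of the line, Igtp for example at 4.49 in satellite cells and 1.19 in FAPs, and Gbp4 lies alone at -0.36 in satellite cells and 3.90 in FAPs.

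The day change itself differed between the cell types for most members. In the interaction test, 24 of 34 had a larger change in SCs and 1 a smaller one, against 15.4% and 8.39% of 18069 genes (23.8% in either direction). The larger changes fell to 13 of 18 type I-like, 7 of 10 gamma-like and 4 of 6 class I members, with median differences of 2.88, 1.99 and 1.77 log2. Among type I-like members, Usp18, a protease that removes Isg15 and damps the receptor, had 1.91 ± 1.07 and 38.6 ± 10 CPM in control SCs at D3 and D7 and 41.7 ± 7.34 and 57.5 ± 15.3 CPM in control FAPs. The difference between these changes was 3.65 ± 0.42 log2, the largest among called type I-like members, followed by Oasl2 (3.63 ± 0.36) and Mx2 (3.61 ± 0.67). Among gamma-like members Igtp (3.44 ± 0.32) and Gbp3 (2.73 ± 0.28) had the largest positive differences, and in class I these were Tap1 (2.72 ± 0.20), Psmb9 (2.48 ± 0.28) and Psmb8 (2.24 ± 0.31). Gbp4 ran the other way, with a difference of -4.18 ± 0.71 (adjusted p = 0.00308, edgeR). The 9 members that did not pass were Ifit2, Isg20, Oas1a, Bst2, Rsad2, Irf8, Gbp5, B2m and H2-D1, with differences from -0.21 to 2.36. Of the 25 called members, 23 kept the call in all 17 alternatives, and Gbp6 and Mx1 each lost it in 1. The type I-like median difference was 2.05 with BAT in place of control libraries and 3.28 without the uncoded mouse.

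The cell types were also compared on each day. At D3, control SCs lay below control FAPs for 31 of 34 members and above them for 1, Gbp4, where 35.9% of 16329 genes were called lower and 35.8% higher (71.7% in either direction). The median log2 differences were -4.40 for type I-like, -2.97 for gamma-like and -2.31 for class I members, against 0.03 over all genes. Ifit3 was lower in SCs by 5.19 ± 0.42 log2, in each of 4 mice. Ifi44, an antiviral GTP-binding protein, had 0 to 0.594 CPM in control SCs and 9.36 to 16.4 CPM in control FAPs, the largest difference at -5.75 ± 0.63. Oas1a, with 0 to 3.6 CPM in SCs and 18 to 32.4 CPM in FAPs, differed by -5.26 ± 0.89, and its highest SC value was in the macrophage-rich library. Igtp and Gbp3 differed by -4.14 ± 0.20 and -3.78 ± 0.22, and Tap1, Psmb8 and Psmb9 by -3.16 ± 0.12, -3.11 ± 0.25 and -2.45 ± 0.17. Gbp4 was higher in SCs in 4 of 4 mice, by 3.74 ± 0.29. Rsad2 had 5.15 to 9.51 CPM in SCs and 4.05 to 10.6 CPM in FAPs and did not differ detectably (0.00 ± 0.30), and Irf8 did not pass either (-0.95 ± 0.61). All 32 called members kept the call in the 12 alternatives run. With BAT in place of control libraries the type I-like and gamma-like medians were -3.37 and -2.70.

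By D7 the gap was smaller. Of the 34, 26 were called lower in control SCs than in control FAPs and none higher, against 22.6% and 22.5% of 16969 genes (45.1% in either direction). These were 15 of 18 type I-like, 6 of 10 gamma-like and 5 of 6 class I members, with medians of -1.41, -0.61 and -0.89. In 7 members every SC library lay below every FAP library, all of them type I-like, where 11.4% of genes with a mean of at least 1 CPM did so. Isg20, at 2.73 to 4.45 CPM in SCs and 19.8 to 25.2 CPM in FAPs, and Oas1a, at 3.6 to 9.38 and 24.4 to 45.7 CPM, each differed by -3.00 (SE 0.20 and 0.19), and Ifi44 by -2.26 ± 0.16. Gbp5, Gbp2 and Gbp3 differed by -1.51 ± 0.29, -1.21 ± 0.18 and -1.06 ± 0.16, and H2-D1, B2m and H2-K1 by -1.21 ± 0.19, -1.15 ± 0.22 and -0.90 ± 0.17. Psmb9, at 23.4 to 30.8 CPM in SCs and 11.4 to 26.2 CPM in FAPs, did not pass (0.01 ± 0.19). This comparison depended on scaling more than the others. With library totals, the median of all genes shifted by 0.42 log2, and 18 members were called lower and 1 higher. The class medians were then -0.99, -0.19 and -0.47. Without the mouse block 22 members were called lower. Of the 26 called members, 17 kept the call in all 12 alternatives.

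Within the proteasome, the interferon-inducible catalytic subunits Psmb8 and Psmb9 replace the constitutive Psmb5 and Psmb6 in newly made particles, which changes the peptides offered to class I molecules. Psmb8 and Psmb9 lie beside Tap1 on chromosome 17, at positions 34197721 to 34201454 and 34181987 to 34187764. In control SCs the test called Psmb8 and Psmb9 higher at D7 by 2.36 ± 0.26 and 2.60 ± 0.17 log2, while Psmb5, Psmb6 and Psmb7 were lower by 1.10 ± 0.15, 1.18 ± 0.16 and 1.49 ± 0.18 log2. Psmb10, the inducible counterpart of Psmb7 and no member, was lower at D7 as well, by 0.60 ± 0.17 log2 (58 ± 3.54 and 49.1 ± 11.8 CPM). Per length, Psmb10 made up 25.3 ± 2.59% and 38.3 ± 6.93% of Psmb10 plus Psmb7, both transcripts being lower at D7. Psmb8 made up 0.929 ± 0.424% of Psmb8 plus Psmb5 at D3 and 9.28 ± 1.5% at D7, with ranges of 0.663 to 1.56% and 7.92 to 11%. The Psmb8 share in control FAPs was 11.2 ± 0.932% and 16.7 ± 3.68%, so that SCs at D7 came near the FAP level of D3. Psmb9 made up 0.294 ± 0.0517% and 3.94 ± 0.835% of Psmb9 plus Psmb6 in control SCs, and 3.09 ± 0.553% and 5.38 ± 1.24% in control FAPs. The BAT groups lay alongside, at 1.29 ± 0.684% and 9.3 ± 2.33% for Psmb8 in SCs. In control FAPs neither Psmb8 (0.33 ± 0.17) nor Psmb9 (0.30 ± 0.21) passed the test between days, and Psmb6 and Psmb7 were lower at D7 by 0.56 ± 0.16 and 0.81 ± 0.15 log2.

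**Figure D3:**
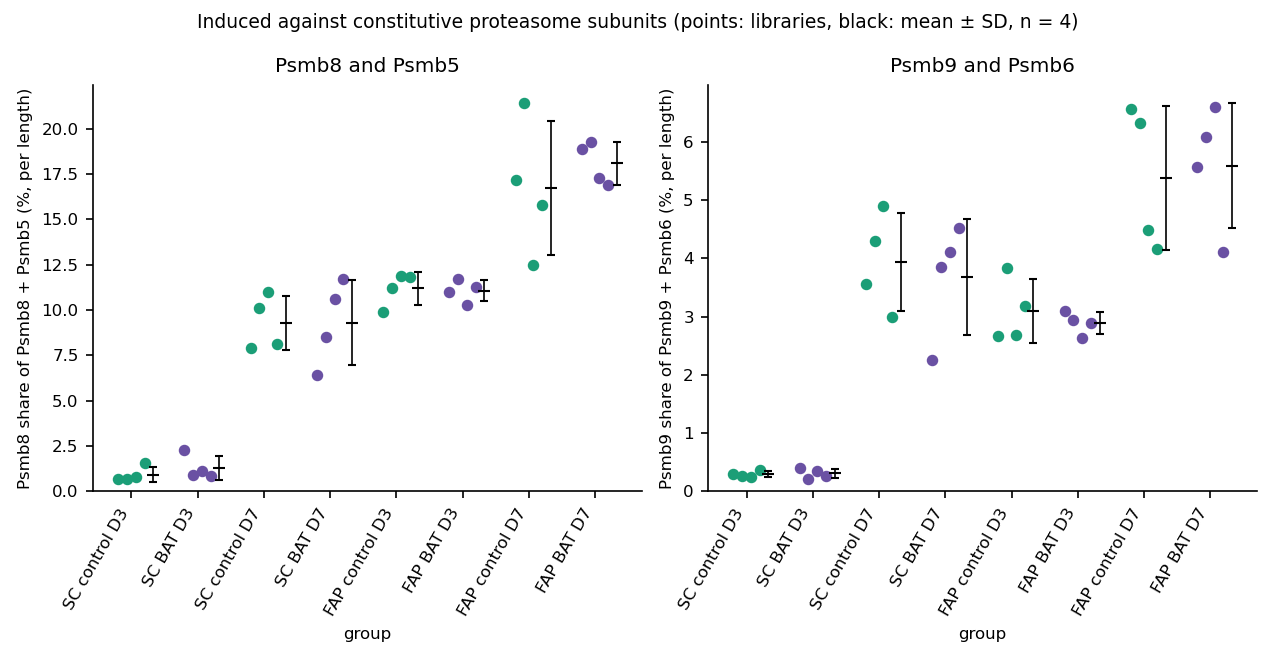
Share of the inducible subunit in the pair Psmb8 and Psmb5 (left) and Psmb9 and Psmb6 (right), from CPM per exonic length, by group (points are libraries, green control and purple BAT, black marks are mean ± SD, n = 4). Satellite cells at D3 lie between 0.663 and 2.3% for Psmb8, and the libraries of the other groups lie between 6.42 and 21.4%.

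Levels between genes can be compared only per length. As TPM, which scales counts by gene length and library total, in control FAPs at D7, B2m was the most abundant member named here, with a mean of 2881 TPM, followed by H2-D1 with 1788 TPM, Bst2 with 482 TPM and H2-K1 with 365 TPM. In control SCs at D3, B2m had 411 TPM, H2-D1 200 TPM, Bst2 41.7 TPM and Irf1 13.8 TPM. B2m and H2-D1 thus stood above the other members in both groups.

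Other genes of the pathway were taken from lists of known targets. Of other type I-inducible genes, 22 of 28 tested were higher at D7 in control SCs and 8 of 29 in control FAPs, none lower in either, against 29.7% and 11.5% of all genes called higher. The same shares apply to the counts of the other lists here. The largest changes in SCs were those of Oas1b (5.15 ± 0.79), Oas2 (3.95 ± 0.92) and Lgals3bp (3.69 ± 0.80), the first 2 being further members of the Oas family. Of other gamma-inducible genes, 11 of 15 tested were higher and 2 lower in SCs, and 12 of 15 were higher in FAPs. The GTPases Iigp1 (6.24 ± 0.46), Tgtp2 (6.13 ± 0.53) and Tgtp1 (5.84 ± 0.80) led in SCs, the last 2 being near-identical copies. The size of these changes rests on low levels in control SCs at D3. Iigp1 had 0.457 to 3 CPM there, Tgtp2 0.137 to 1.26 CPM and Tgtp1 0 to 0.252 CPM. Among nucleic acid sensors, 5 of 9 tested were higher in SCs, led by Zbp1 (3.55 ± 0.55), Ddx58, which encodes RIG-I (2.73 ± 0.16), and Dhx58 (2.45 ± 0.35), while in FAPs none of 10 was higher and Sting1 was lower by 0.45 ± 0.14. Of other class I pathway genes, 11 of 18 were higher and 3 lower in SCs, with the heavy-chain-like H2-Q6, H2-Q7 and H2-Q4 at 5.11 ± 0.56, 3.32 ± 0.28 and 2.96 ± 0.37. H2-Q6 had only 0.0686 to 0.636 CPM in control SCs at D3. In control FAPs the summed level of this list was lower at D7, at 5137 to 5846 CPM at D3 and 3868 to 4086 CPM at D7. Its genes went both ways there, Pdia3 from 2740 to 3118 CPM to 1635 to 2052 CPM, and Tapbp from 181 to 235 CPM to 287 to 626 CPM. Class II presentation genes, which belong to professional antigen-presenting cells, were not called between days in SCs (0 of 6, 0 at an unadjusted p under 0.05). Their summed level was 315, 386 and 874 CPM in the 3 macrophage-rich libraries and 3 to 61 CPM in the other 29. In control SCs the sum ran from 4.61 to 315 CPM at D3, the highest in the macrophage-rich library, and from 11.5 to 41.1 CPM at D7. In control FAPs it was 8.81 to 23 CPM at D3 and 29.2 to 44.3 CPM at D7. Cd74 was the largest part of that D7 sum, at 1.17 to 6.21 and 12 to 23.8 CPM. H2-Ab1 and H2-DMa overlapped between the days in control FAPs.

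The study asked whether the brown fat transplant alters regeneration, and for these genes no difference passed the test. BAT and control muscles gave 0 called members in SCs at D3 (30 members tested) and D7 and in FAPs at D3 and D7 (34 tested each), where 0%, 0.0178%, 0.0188% and 0% of all genes were called. At an unadjusted p under 0.05 there were 0, 2, 1 and 0 members, and DESeq2 called 0 in each comparison. In none of the 34 members did the 4 BAT libraries lie wholly above or below the 4 control libraries, in any of the 4 comparisons. Over all genes with a mean of at least 1 CPM, 0.227%, 0.266%, 0.687% and 0.257% lay wholly above and 0.712%, 0.587%, 1.28% and 0.214% wholly below, in the same order. The tests of whether the BAT effect differed between days or between cell types gave 0 called members as well (1 and 1 members at an unadjusted p under 0.05 for the days in SCs and FAPs, 2 and 2 for the cell types at D3 and D7, and 0 by DESeq2), with 0%, 0%, 0.0229% and 0% of all genes called.

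At D7 the fitted BAT effects lay on both sides of 0. In SCs they ranged from -0.29 to 0.67 log2 (median 0.05) and in FAPs from -0.28 to 0.33 (median -0.02). Irf1 in BAT SCs had 166, 226, 377 and 404 CPM in mice 1a, 1b, 3 and 5, against 224, 219, 302 and 338 CPM in the paired control muscles. It was higher with BAT in 3 of 4 mice, by 0.07 ± 0.13 log2 (adjusted p = 0.907, edgeR). H2-D1 in BAT FAPs had 2004, 2498, 2040 and 791.8 CPM against 2056, 2117, 2326 and 874.5 CPM, so the low value of mouse 5 recurred in its other muscle. Of the members with the smallest p, B2m in SCs was higher in BAT muscle in 4 of 4 mice (575.7, 676.4, 761.1 and 940.4 CPM), by 0.34 ± 0.12 log2, and did not pass after adjustment (adjusted p = 0.627, edgeR). Stat2 in SCs was lower with BAT in 4 of 4 mice, by 0.29 ± 0.11 log2 (adjusted p = 0.634, edgeR). In FAPs the smallest p at D7 was that of Ifit1 (0.33 ± 0.15, adjusted p = 0.953, edgeR), with 182, 146.5, 75.8 and 53.8 CPM in BAT and 118, 125, 49.4 and 63.7 CPM in control muscles.

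At D3 the type I-like members of SCs had a median fitted effect of 0.45 log2 with wide errors, and the individual mice disagreed. Irf7 had 9.82, 2.34, 6.42 and 1.01 CPM in the BAT muscles of mice 2b, 3a, 3b and the uncoded one, against 1.19, 1.29, 1.25 and 3.13 CPM in their control muscles. It was higher with BAT in 3 mice and lower in the uncoded one. Isg15 followed the same pattern, with 7.265, 3.26, 7.07 and 2.68 CPM in BAT and 1.69, 1.93, 3.17 and 5.15 CPM in control muscles (0.79 ± 0.48 log2). Of the 18 type I-like members, 12 were higher with BAT in 3 of 4 mice and 1 in 4 of 4. Among gamma-like members 6 of 10, and among class I members 2 of 6, were higher in 3 of 4 mice. The same count was not made over all genes, so these counts have no background to be set against. Macrophage markers, like Irf7 and Isg15, were higher with BAT in mice 2b, 3a and 3b and lower in the uncoded mouse. They summed to 2422, 90.3, 227 and 18.4 CPM in the BAT libraries and 20.6, 61.1, 59.2 and 2141 CPM in the control libraries of the same mice. The 8 FAP markers were higher with BAT in mice 2b and 3b and lower in mouse 3a and the uncoded one, at 1633, 91.7, 957.9 and 74.8 CPM with BAT and 62.3, 114.5, 67 and 603.6 CPM in control. Their part in the result was not tested. The class medians were 0.45, 0.09 and 0.10 for type I-like, gamma-like and class I members, and without the uncoded mouse they were 1.22, 0.46 and 0.37. No member was called, either then or without both mice that had a macrophage-rich SC library. The latter fit kept only mice 3a and 3b, too few for a lack of calls to be read as a result. In FAPs at D3 the effects ran from -0.29 to 0.70 (median -0.04). Ifi35 had the smallest p and was lower with BAT in 4 of 4 mice (-0.29 ± 0.09, adjusted p = 0.957, edgeR), and Irf8, at 23.8 CPM in the macrophage-rich BAT library of mouse 2b and 2.62 to 3.49 CPM in the other 3, had the highest fitted value.

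**Figure D4:**
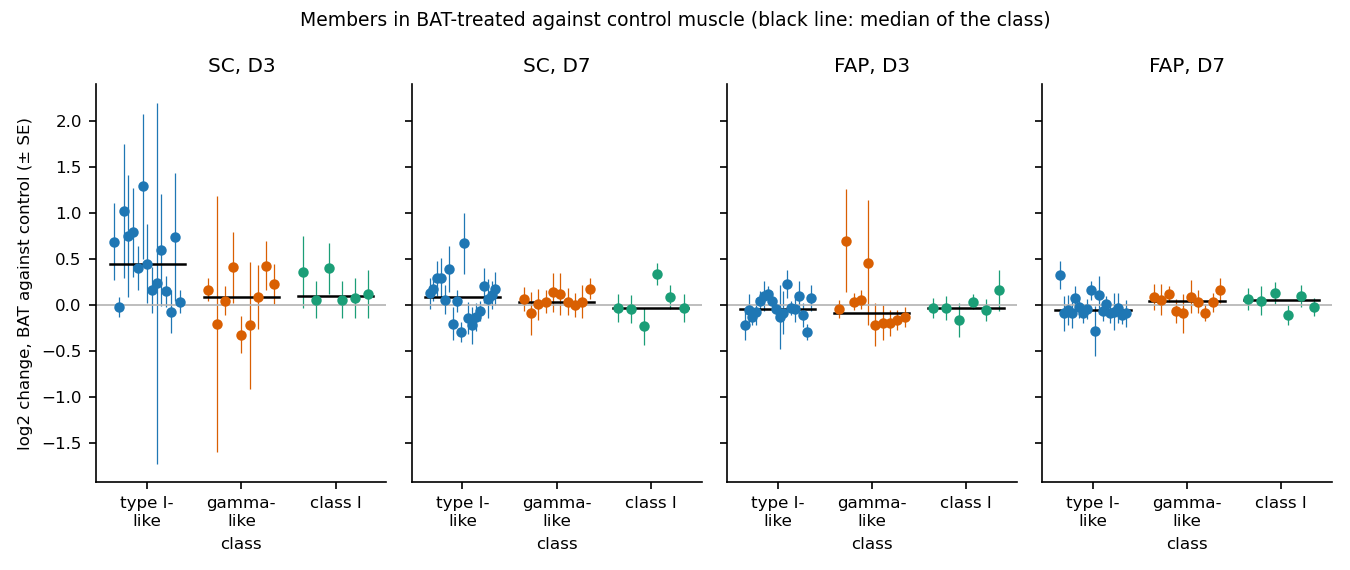
Fitted log2 change in BAT against control muscle for each member tested, with bars of ± 1 SE, by class and comparison (black line, median of the class). Effects at D7 range from -0.29 to 0.67 in satellite cells and from -0.28 to 0.33 in FAPs, and the highest class median, 0.45, is that of type I-like members in satellite cells at D3.

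At D7 the type I-like level of FAPs differed more between mice than between the muscles of 1 mouse. In control FAPs the summed level of the 18 type I-like members was 1336, 1402, 823 and 659 CPM in mice 1a, 1b, 3 and 5, and in BAT FAPs it was 1552, 1296, 899 and 535 CPM. Mice 1a and 1b were high and mouse 5 lowest in both muscles. The 10 gamma-like members did not follow that order, at 828, 1060, 639 and 826 CPM in control and 793, 974, 820 and 875 CPM in BAT FAPs. In SCs the type I-like sum was 582, 693, 479 and 460 CPM in control muscles of mice 1a, 1b, 3 and 5. With BAT it was 701, 493, 517 and 512 CPM, so mouse 5 was not the lowest there. The gamma-like sum of SCs was lowest in mouse 1a and highest in mouse 5 in both muscles, at 523 and 752 CPM in control and 495 and 950 CPM with BAT. The ratio of the type I-like to the gamma-like sum was 1.61, 1.32, 1.29 and 0.798 in control FAPs, and 1.96, 1.33, 1.1 and 0.612 in BAT FAPs. In SCs it was 1.11, 0.98, 0.66 and 0.612 in control and 1.42, 0.733, 0.713 and 0.539 with BAT. The mice stood in the order 1a, 1b, 3 and 5 in all 4 kinds of library, which share the animals and are not independent. Without Irf1, which makes up much of the gamma-like sum, mouse 1a stayed highest and mouse 5 lowest in all 4, and mice 1b and 3 changed places in 3 of them. Mouse 5 is the one whose libraries went against the label male, and its macrophage marker sums, 77.5 to 120.5 CPM, were the highest at D7. Their part in its lower type I-like levels in FAPs was not tested.

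**Figure D5:**
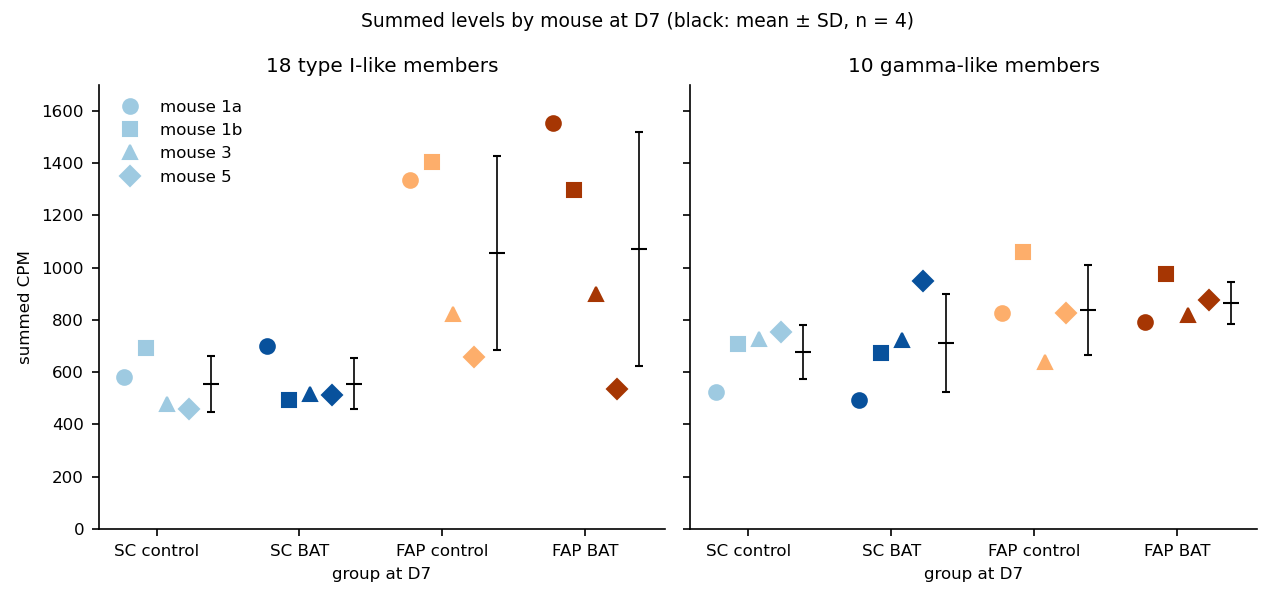
Summed CPM of the 18 type I-like members (left) and the 10 gamma-like members (right) in each D7 library, with 1 symbol per mouse and mean ± SD (n = 4) in black. In FAPs the type I-like sums of mice 1a and 1b, 1296 to 1552 CPM, lie above those of mice 3 and 5, 535 to 899 CPM, and the gamma-like sums lie between 639 and 1060 CPM in no such order.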

How the data were processed

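RNA from sorted cells (10 ng of total RNA per library, SMARTer Ultra Low kit, per the labels' protocols) was sequenced, and the submitters' processing notes name DRAGEN and the mouse build mm10. The deposited tables, 1 per day, hold estimated counts per gene (expected counts, not all whole), whose strand setting is not given in the sources used here. Repeated gene identifiers (287) were dropped and counts rounded. CPM used column totals, and TPM used exonic lengths of GENCODE M21. Fold changes and p-values came from edgeR 4.0.16 (quasi-likelihood F test, TMM scaling, filterByExpr with a minimum count of 10, R 4.3.3), fitted to all genes, with Benjamini-Hochberg adjustment and calls at an adjusted p under 0.05. TMM fold changes and CPM ratios differ by the scaling shift.

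Mouse was a block in comparisons within mice, because the design text says that paired samples share a mouse. Correlations of same-mouse deviations between BAT and control ran from -0.37 to 0.50 in SCs at D3, 0.19 to 0.67 in SCs at D7, -0.05 to 0.34 in FAPs at D3 and 0.52 to 0.78 in FAPs at D7. Their medians were -0.00, 0.55, 0.22 and 0.64 in that order, against 0.03, -0.16, -0.06 and -0.27 between different mice. In SCs at D3 the pairing was thus not visible, and 1 of 4 mice correlated best with its own library. Comparisons of days had no block. Alternatives were DESeq2 1.42.0, other scaling, no filter, no block, 1 fit of all libraries, BAT in place of control libraries, and leaving out mice, libraries or macrophage-rich mice. The last at a limit of 1000 CPM and library totals in place of TMM were added after seeing the data. In comparisons of days, only the macrophage-rich libraries compared were left out, not all libraries of the mouse. Fits were tested on simulated data with the same spread for all genes and no difference between mice. Of 2-fold changes, 60 to 72% were recovered in the 4 BAT comparisons and 18 to 26% in the 4 tests of differing BAT effects. Of 4-fold changes, 95 to 96% and 88 to 92% were recovered. A 2-fold BAT effect could thus have gone uncalled. The simulated spread was not that of these members, so the shares need not hold for them. In SCs at D3 the SE of the BAT effect was 0.11 log2 for Ifit2, 0.73 for Ifit3 and 0.79 for Irf7. Irf7 was not called at a fitted effect of 1.29 log2. For members with such wide errors, effects larger than 2-fold could have gone uncalled as well.

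The members and gene lists were chosen with earlier results of these data known. Genes named with every library are the 2 of highest mean CPM in each class, and in each comparison the 3 called members of each class with the largest change, or those of smallest p where none was called. Other genes whose values are printed (Isg20, Rsad2, Usp18, Isg15, Irf8 and Psmb8 among them) were added after their values were seen. Some pathway genes of the lists are not reported here.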

Additional observations from a re-analysis of the deposited data

Results flagged for a closer look

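In 17 of 272 sets of 4 libraries (6.25%, where chance gives about 1 in 20), the highest or lowest library stood apart from the other 3 by Dixon's criterion. Of these, 9 were in a macrophage-rich library. In control SCs at D3 the uncoded mouse stood high for Irf7 (3.13 CPM, others 1.19 to 1.29), Stat2 (4.36 CPM), Oas1a (3.6 CPM), Oasl2 (4.79 CPM) and Irf8 (8.44 CPM). In BAT SCs at D3, mouse 2b stood high for Oas1a (5.35 CPM), Irf8 (10.2 CPM) and H2-K1 (103 CPM), and in BAT FAPs at D3 the same mouse stood high for Irf8 (23.8 CPM).

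At D7, mouse 5 stood low for Irf7 in control FAPs (43.4 CPM, others 133 to 141) and in BAT FAPs (33.4 CPM, others 133 to 138). The remaining 6 were Isg15 in BAT SCs at D7 (mouse 1a, 62.4 CPM), Mx2 in control SCs at D3 (mouse 2b, 0.594 CPM), Gbp5 in control FAPs at D3 (mouse 2b, 2.16 CPM), Gbp6 in BAT SCs at D3 (uncoded mouse, 0.148 CPM, others 2.52 to 2.91), Psmb9 in control SCs at D7 (mouse 1b, 30.8 CPM) and Tap1 in control FAPs at D7 (mouse 1b, 61.7 CPM). For 25 members the day change differed between SCs and FAPs by the interaction test.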

How the results depend on the processing

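No called member reversed its direction under any alternative run. The count of members higher at D7 in control FAPs was 23, fell to 15 without the control D3 library of the uncoded mouse, and ranged from 15 to 29 over all libraries left out in turn. It was 17 with BAT in place of control libraries and 18 in 1 fit of all libraries. Without the replicate block, 22 in place of 26 members were called lower in control SCs than in FAPs at D7, and the block changed no other count of called members. Library totals in place of TMM gave 19 calls there (18 lower, 1 higher). The causes were not tested. Leaving out mice above 3 times the median macrophage sum was not run for BAT in SCs at D3, since 1 mouse remained. Depth limits members such as Mx1, Gbp5 and Ifi44, which had under 1 CPM in control SCs at D3.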
